A study of Mus musculus with 38 samples.

Results

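The mouse genome carries a large family of vomeronasal type 2 receptor genes (Vmn2r), and the data give the signal of proteins of the nuclear lamina over most of these genes in pluripotent cells. The rule for members uses only name and biotype and takes the protein-coding genes whose symbol is Vmn2r followed only by digits. This rule found 122 members among 78202 annotated genes, of which 21687 are protein-coding. It left out 3 genes with such a symbol and another biotype, and 118 Vmn2r pseudogenes. Binding was measured by CUT&RUN, which uses an antibody to bring a nuclease to a protein on chromatin and sequences the DNA fragments it cuts free. The cells were naive mouse embryonic stem cells (naive mES cells) and epiblast-like cells (EpiLCs) made from them, both collected 48 hours after seeding. One antibody bound LAP2B, which sits in the inner nuclear membrane, another bound lamin B1 (LMNB1), and an unspecific immunoglobulin (IGG) gave the background. For LAP2B, libraries of both stages came from wild type (WT), LBRKO (no functional lamin B receptor, LBR), TKO (no lamin of any type) and QKO (neither lamins nor LBR) cells. The other antibodies were used on WT alone, so that the series has 12 groups of 3, or 36 libraries.

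The genotypes are cell lines and not edits of one culture. The study took WT and TKO lines from littermates, made LBRKO clones from the WT line and obtained a single QKO clone from the TKO line. Its karyotyping found in the TKO line an extra copy of a chromosome on which no member lies. In part of the WT cells it found extra chromosomes, including chromosome 6. The study states that QKO cells were karyotyped too, but its methods describe only WT and TKO. No IGG library of a mutant was analysed here, so copy number in the mutants was not measured. The libraries are genomic DNA, so they hold no transcript by which the cell type or the knockouts could be checked. The labels number 3 replicates per group without naming separate cultures, and p-values therefore measure the spread between these libraries only.

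Vomeronasal type 2 receptors are G protein-coupled receptors with a long extracellular domain that binds peptides and proteins. They are made by sensory neurons in the basal layer of the vomeronasal organ, which detects pheromones, and most such neurons use one or a few of the genes while the others stay silent. The genes lie in tandem arrays in AT-rich chromatin, are silent outside the olfactory system, and such arrays are typical of lamina-associated domains, the parts of the genome held at the nuclear periphery. Lamins, which form the lamina, and LBR, a membrane protein that binds heterochromatin, are known as tethers of these domains.

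The 122 members lay on 9 chromosomes, with 50 on chromosome 7 and 33 on chromosome 17. Members less than 2 Mb apart on a chromosome were taken as one cluster, which gave 15 clusters, 4 of them with a single member. The larger ones, each named by its chromosome and a letter, were 17 a with 31 members, 7 a with 24, 7 d with 15, 5 a with 10, 6 with 9 and 3 with 8. Because neighbouring members arose by duplication, parts of their sequence are near copies, and the reads of one member can belong to another. The windows of 150 bases before the start of the gene (GRCm39, minus strand, from the reference genome) show such near copies for a pair of members from each of 2 clusters whose LBRKO values are given below, Vmn2r34 and Vmn2r50 of cluster 7 a and Vmn2r84 and Vmn2r85 of cluster 10 b. Capitals mark the bases that differ from the partner, and in Vmn2r34 also an inserted base, the A near its start. Unaligned bases at the ends are in lower case.
Vmn2r34 (chr7:7692513-7692662): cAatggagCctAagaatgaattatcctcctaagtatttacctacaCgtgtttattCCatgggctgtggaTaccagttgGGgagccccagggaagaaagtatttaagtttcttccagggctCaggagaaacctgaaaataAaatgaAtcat
Vmn2r50 (chr7:9787224-9787373): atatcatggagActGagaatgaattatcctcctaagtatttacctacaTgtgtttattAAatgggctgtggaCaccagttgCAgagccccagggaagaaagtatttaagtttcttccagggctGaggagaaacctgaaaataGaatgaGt
Vmn2r84 (chr10:130230202-130230351): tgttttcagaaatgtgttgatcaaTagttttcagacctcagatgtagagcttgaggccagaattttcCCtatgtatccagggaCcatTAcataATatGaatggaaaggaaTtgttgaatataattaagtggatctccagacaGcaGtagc
Vmn2r85 (chr10:130265573-130265722): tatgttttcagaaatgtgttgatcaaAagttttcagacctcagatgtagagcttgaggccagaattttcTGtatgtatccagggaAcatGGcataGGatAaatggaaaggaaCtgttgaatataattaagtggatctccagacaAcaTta
The first pair matched at 135 of 146 aligned bases and the second at 136 of 148. The windows of Vmn2r20 and Vmn2r21 on chromosome 6 matched at 95 of 95 aligned bases. Of the 122 windows, 99 shared a word of 20 bases with the window of another member, and for 95 of these windows the closest match lay in the same cluster.

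Over the whole length of the tested members, a median of 19.3% of the words of 50 bases (the read length) also occurred elsewhere in the genome, with a range from 0.945% to 100%. Vmn2r105 shared the least with other members (0.27% of its words) and Vmn2r21 the most (99.1%), its closest relative being Vmn2r22. The members were AT-rich, with a median GC content of 36.5% against 45.2% for protein-coding genes. For 11 members every one of the 36 libraries read 0. They were Vmn2r115, Vmn2r117 and Vmn2r130 of cluster 17 a and Vmn2r29, Vmn2r37, Vmn2r38, Vmn2r39, Vmn2r40, Vmn2r45, Vmn2r47 and Vmn2r48 of cluster 7 a. A median of 87.4% of their words (21.7% to 95.9%) occurred elsewhere, but Vmn2r129, of which every word did, was measured. The authors left blacklisted regions out of the signal, and whether these members lie in such regions was not tested. They are only listed at 0, with no statement on the lamina. The other 111 members were all measured and all tested. In 3 places neighbouring members overlap and share signal, namely Vmn2r24 with Vmn2r25, Vmn2r55 with Vmn2r56, and Vmn2r70 with Vmn2r71.

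Levels are given in 2 forms. The relative signal of a gene is its summed signal divided by that of the library's median gene, so that 1 is the median gene. Where genes are compared with each other, the signal was first divided by the number of 1 kb bins the gene touches, and this is called density (median gene again 1). The reads recovered from the values, summed over genes, ranged from 12028659 to 45689196 per library, and the median gene held 36 to 135 reads. In naive WT cells the members were above the median gene for both lamina proteins. Their median LAP2B density was 1.66 ± 0.23 (SD, n = 3 libraries, range 1.51 to 1.93), and 97 to 102 of the 111 members were above 1 in each library. For LMNB1 the median density was 2.23 ± 0.39 and for IGG 0.839 ± 0.074 (SD, n = 3 each). The tables of the 3 antibodies were scaled separately, so these levels were not tested against each other. Among the 70312 genes with coordinates that were tested, the members' median lay at percentile 79.8 for LAP2B, 88.6 for LMNB1 and 21.8 for IGG. In WT EpiLCs the median density was 1.18 ± 0.14 for LAP2B, 1.82 ± 0.26 for LMNB1 and 0.713 ± 0.052 for IGG (SD, n = 3 each), at percentiles 65.8, 90.5 and 14.2.

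**Figure D1:**
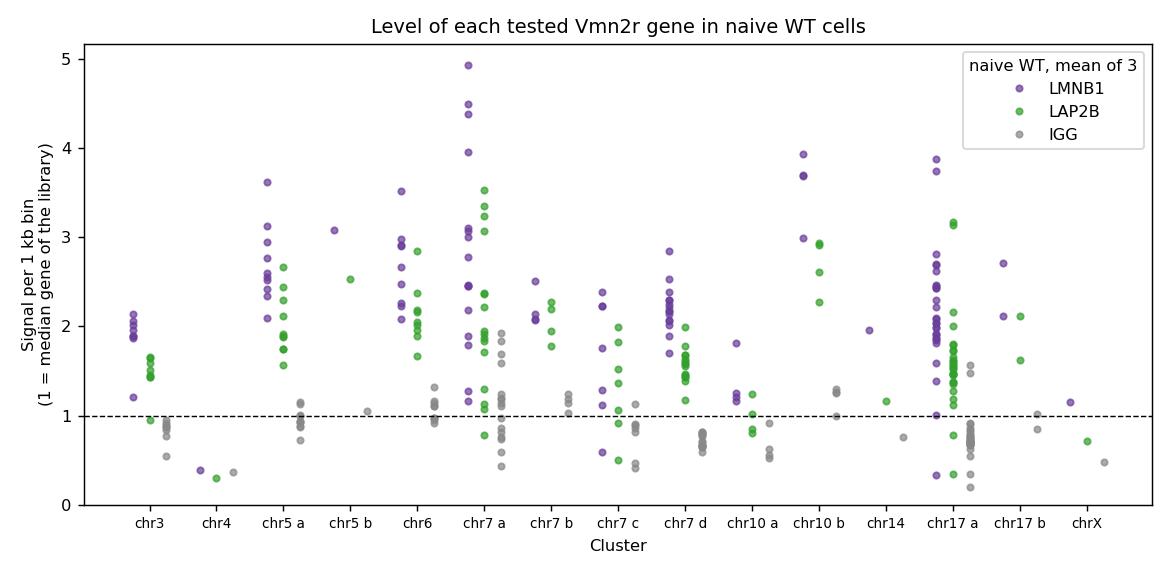
Density (signal per 1 kb bin, 1 = the library's median gene, dashed line) of each of the 111 measured Vmn2r genes in naive WT cells, as the mean of 3 libraries, by genomic cluster, for LMNB1 (purple), LAP2B (green) and IGG (grey). Most members lie above 1 for LMNB1 and LAP2B, the highest being Vmn2r49 of cluster 7 a, and Vmn2r129 on chromosome 4 lies below 1 with all 3 antibodies.

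Single members spanned more than a factor of 10 in naive WT density. Vmn2r49 of cluster 7 a had the highest LMNB1 density, with 4.93 ± 0.87, and a LAP2B density of 3.53 ± 0.16 (SD, n = 3 each), beside 1.84 ± 0.32 in IGG. By cluster, median LAP2B density was highest in 10 b (2.76, 4 members) and lowest, among clusters of several members, in 10 a on the same chromosome (0.93, 4 members). Vmn2r129, alone on chromosome 4, was below the median gene with every antibody. Its density was 0.303 ± 0.067 for LAP2B, 0.388 ± 0.159 for LMNB1 and 0.371 ± 0.089 for IGG, levels that were not tested against each other. Vmn2r129 was not the only low member, and the lowest LMNB1 density, 0.338, was that of Vmn2r114 in cluster 17 a. Vmn2r121, alone on chromosome X, had a LAP2B density of 0.716 ± 0.066 and an LMNB1 density of 1.16 ± 0.15. Across the 111 members, naive LAP2B density followed LMNB1 density (Spearman's rho 0.92) and also IGG density (rho 0.85). Members share libraries, bins and copied sequence, so both are descriptions only.

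LAP2B signal at the members was lower in every mutant than in naive WT cells, and lowest in QKO. LBRKO libraries had a median member density of 0.643 ± 0.070, TKO libraries of 0.960 ± 0.098 and QKO libraries of 0.534 ± 0.058 (SD, n = 3 each), against 1.66 in WT. The 3 WT libraries lay above all 9 mutant libraries. Between 14 and 25 members were above the median gene in the LBRKO libraries, 36 to 64 in the TKO libraries and 7 to 9 in the QKO libraries. The members' median thus moved from percentile 79.8 of all genes in WT to 38.9 in TKO, 17.9 in LBRKO and 15.8 in QKO. In the IGG background of naive WT it lay at percentile 21.8, so the LBRKO and QKO medians were no higher than this background rank. How much of the remaining signal is LAP2B binding was not tested.

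**Figure D2:**
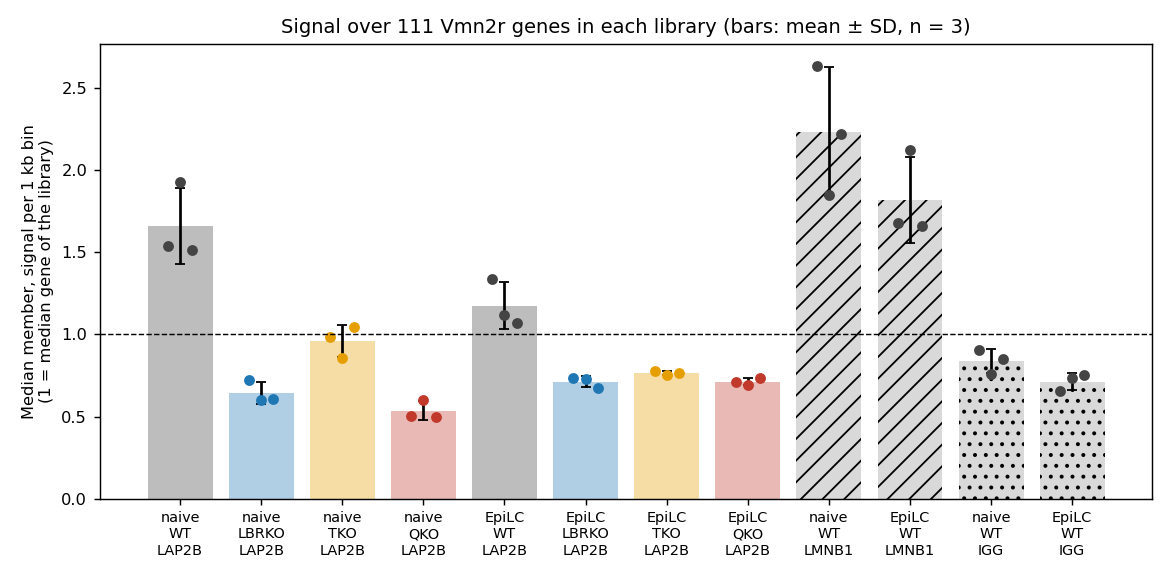
Median density of the 111 measured Vmn2r genes in each library (points, 1 = the library's median gene, dashed line), with bars for the mean and error bars for the SD of 3 libraries, for LAP2B in 4 genotypes and for LMNB1 (hatched) and IGG (dotted) in WT, at both stages. The 3 naive WT LAP2B libraries (1.51 to 1.93) lie above all mutant libraries.

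Gene by gene (limma on log2 of relative signal plus 0.1, called at an adjusted p below 0.05 over all 70381 genes tested), LBRKO was called lower than WT at 106 of the 111 members. Among all genes 27.4% were called lower. The members' median log2 change was -1.42, that of all genes 0.05. In TKO 102 members were called lower, against 27.5% of all genes, with medians of -0.87 and -0.10. In QKO 109 members were called lower, against 42.1% of all genes, with medians of -1.88 and -0.21. One member was called higher in LBRKO and none in TKO or QKO, where 28.9%, 21.8% and 33.3% of all genes were called higher. With libraries divided by their mean, the members' TKO median was -0.54. The contrasts share the WT libraries, and their values are set side by side here without a test of their overlap.

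Vmn2r34 in cluster 7 a fell the most in LBRKO. In naive WT its relative LAP2B signal was 6.58, 8.41 and 6.83. The LBRKO libraries had 1.19, 1.34 and 1.24, the TKO libraries 3.14, 2.77 and 2.81, and the QKO libraries 0.878, 1.69 and 1.32. No mutant library reached the WT range, but the rule that named this member required that of LBRKO and QKO. The LBRKO and QKO libraries overlapped on this relative scale, which removes differences in total signal. In spike-in scaled units the median over members was 9.58 in LBRKO and 2.71 in QKO, and values of this member are not given here. The log2 change of Vmn2r34 was -2.43 (SE 0.18, limma adjusted p = 2.7e-16) in LBRKO, -1.29 (adjusted p = 7.1e-08) in TKO and -2.44 (adjusted p = 2.5e-17) in QKO. Much of its sequence is shared with Vmn2r37 (78.3% of words), one of the members listed at 0, so part of its signal can come from that gene. Vmn2r50, its partner in the sequences above, had log2 changes of -2.18 in LBRKO and -0.97 in TKO, and in QKO it did not pass the test against LBRKO (difference -0.13, SE 0.17).

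Vmn2r21 on chromosome 6 fell the most in TKO and in QKO. Naive WT libraries had a relative signal of 14.3, 18.1 and 13.9 there, those of LBRKO had 7.99, 6.13 and 5.59, those of TKO 4.74, 3.20 and 4.84, and those of QKO 1.73, 2.70 and 2.22. The 4 genotypes did not overlap, but the rule that named this member required that of TKO and QKO against WT. The log2 changes were -1.23, -1.85 and -2.76 (SE 0.16 each, limma adjusted p = 4.8e-09, 2.1e-13 and 1.4e-21), and reads of Vmn2r21 and Vmn2r22 cannot be told apart over most of the sequence. Vmn2r26 on the same chromosome, also known as V2r1b, a receptor for peptides presented by MHC class I proteins, stood at 22.1, 27.3 and 20.4 with LBR and lamins present (WT). It had 14.4, 11.3 and 11.4 without LBR (LBRKO), 10.34, 9.78 and 11.3 without lamins (TKO), and 4.20, 5.42 and 3.26 without either (QKO). The QKO libraries were all below those of both other mutants, and the log2 changes were -0.91, -1.13 and -2.43.

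**Figure D3:**
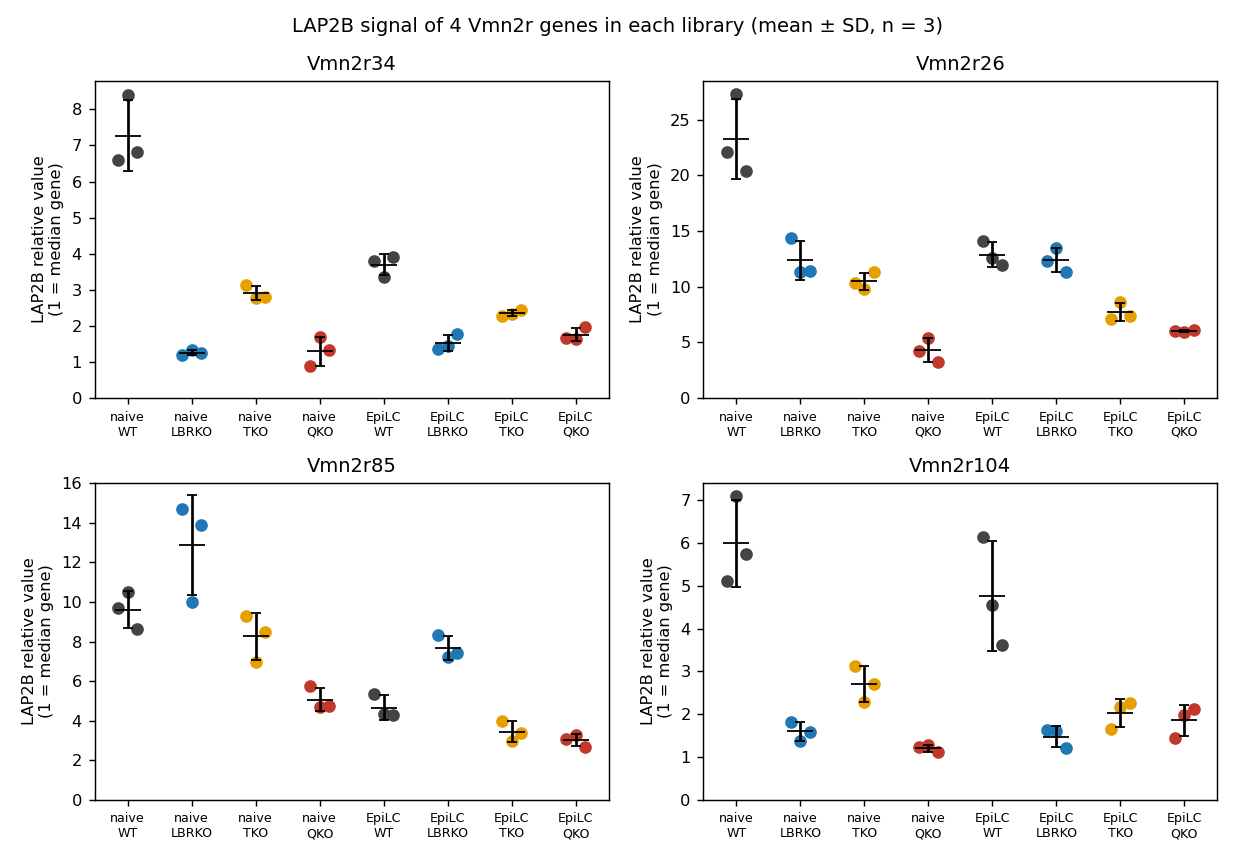
Relative LAP2B signal (linear axis from 0, 1 = the library's median gene) of Vmn2r34, Vmn2r26, Vmn2r85 and Vmn2r104 in each of the 24 LAP2B libraries (points), with the mean and SD of 3 libraries, by genotype and stage. In naive cells the LBRKO and QKO libraries overlap for Vmn2r34, Vmn2r26 is lowest in QKO, and Vmn2r85 is not below WT in LBRKO.

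Vmn2r105, the member with the least sequence in common with the others, was also lower in every mutant. Its relative signal in naive WT was 11.2, 14.5 and 9.81, while LBRKO gave 4.62, 4.95 and 3.49, TKO gave 6.13, 5.08 and 5.85, and QKO gave 2.34, 3.45 and 2.76. All mutant libraries were below all WT libraries, and the log2 changes were -1.42, -1.03 and -2.01 (SE 0.15 each). Of the 60 members with under 20% of their words elsewhere in the genome, 59 were lower in LBRKO (median log2 change -1.37), 56 in TKO (-0.90) and 60 in QKO (-1.89). The 51 members with a larger share had 47 lower in LBRKO (-1.47), 46 in TKO (-0.83) and 49 in QKO (-1.88).

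The co-receptors of the family, Vmn2r1 to Vmn2r7 in the cluster on chromosome 3, are known to be made broadly by basal vomeronasal neurons beside a second, selective receptor. All 7 were called lower in LBRKO and in QKO, with median log2 changes of -1.13 and -1.61, and 6 were in TKO (-0.72). Of all genes, 27.4% were called lower in LBRKO, 42.1% in QKO and 27.5% in TKO. Vmn2r3 was the exception in TKO, with a log2 change of 0.05 (SE 0.14, limma adjusted p = 0.79). Vmn2r1 had a relative signal of 7.36, 9.91 and 6.98 in naive WT. This compared with 4.69, 3.93 and 4.66 for LBRKO, 5.04, 4.75 and 4.61 for TKO, and 2.22, 3.28 and 3.09 for QKO. Every mutant library was below every WT library, and QKO was below both other mutants. The log2 changes were -0.84, -0.72 and -1.47. Of the selective receptors, Vmn2r116 in cluster 17 a, which detects the tear peptide ESP1, changed by -1.49, -0.77 and -2.27.

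The members not called lower were few. In LBRKO they were Vmn2r129 and all 4 members of cluster 10 b, Vmn2r84, Vmn2r85, Vmn2r86 and Vmn2r87. In TKO they were Vmn2r129, Vmn2r3, Vmn2r35, Vmn2r62, Vmn2r63, Vmn2r83, Vmn2r85, Vmn2r90 and Vmn2r114. In QKO they were Vmn2r129 and Vmn2r62, of which Vmn2r62 was called lower after centring on chromosomes (-0.45, limma adjusted p = 0.034). All words of Vmn2r129 and 86.5% of those of Vmn2r62 also occur elsewhere in the genome. Vmn2r129 was called in no mutant. Its relative signal was 0.639, 0.409 and 0.538 in naive WT, and the LBRKO libraries lay below these with 0.269, 0.295 and 0.289 (log2 change -0.69, limma adjusted p = 0.051). WT overlapped with 0.737, 1.07 and 0.612 in TKO and 0.467, 0.876 and 0.412 in QKO. Its QKO log2 change of 0.08 (SE 0.31) had no stable sign. It was -0.21 without naive QKO replicate 2 and -0.065 without naive WT replicate 2.

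The distance between LBRKO and TKO varied between clusters. In cluster 7 a the median log2 change was -1.94 in LBRKO, -0.90 in TKO and -2.06 in QKO (16 members tested). In the cluster on chromosome 6 it was -0.96, -1.14 and -2.19 (9 members), and in 5 a -0.94, -1.01 and -1.92 (10 members), although member by member the median difference of TKO from LBRKO in 5 a was 0.22, with TKO the higher. Clusters 17 a (-1.51, -0.87 and -1.97, 28 members) and 7 d (-1.42, -0.98 and -1.76, 15 members) had LBRKO below TKO, as in 7 a. Most tested members of 7 a had 66.9% (Vmn2r50) to 97.4% (Vmn2r35) of their words elsewhere in the genome. The share was lower for Vmn2r28 (36.2%), Vmn2r51 (22.6%) and Vmn2r52 (5.36%). Counts and medians within 7 a can therefore rest on reads that its members share. Vmn2r18, alone in 5 b, changed by -0.79, -1.36 and -2.27, and Vmn2r121 on chromosome X by -1.80, -0.77 and -1.48.

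**Figure D4:**
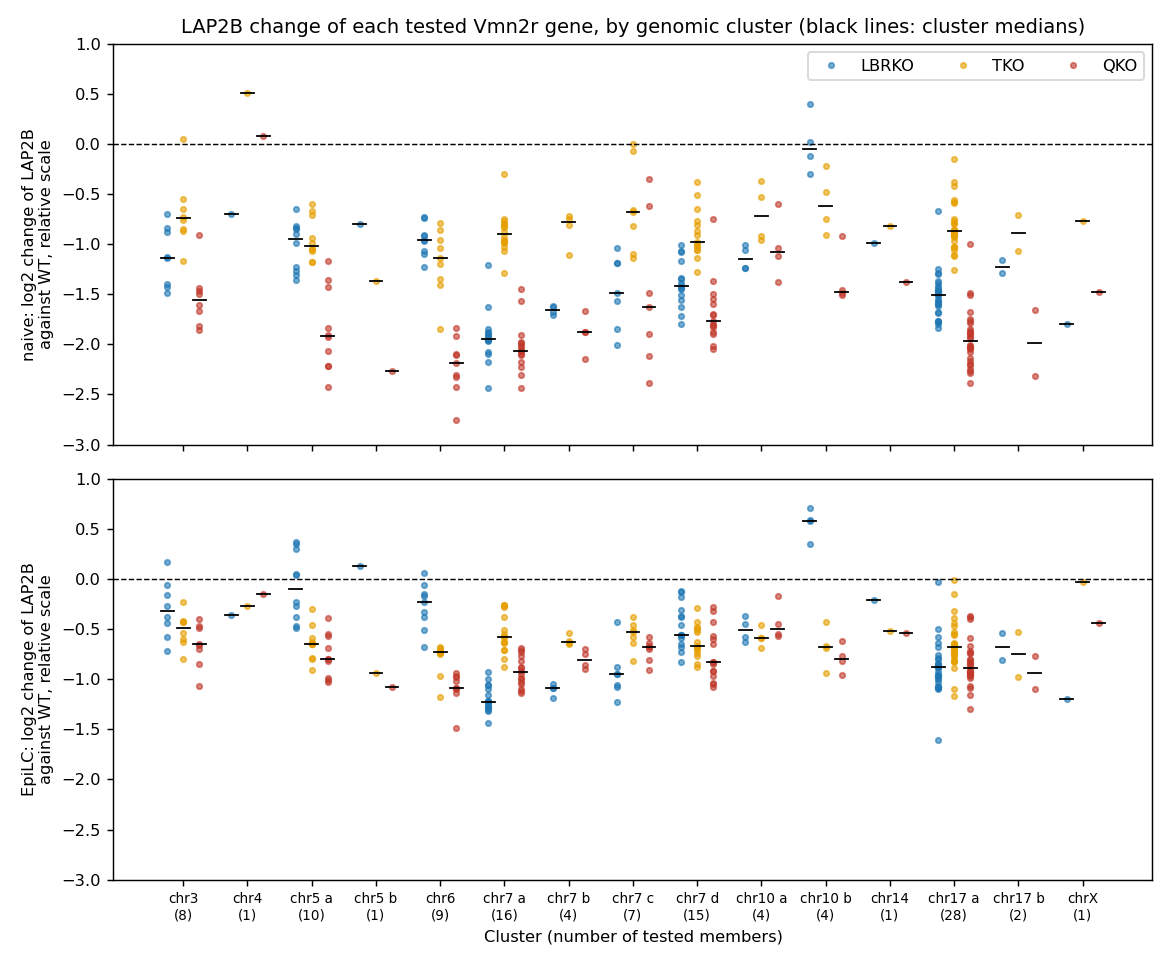
Log2 change in relative LAP2B signal against WT for each tested Vmn2r gene (points) in LBRKO (blue), TKO (orange) and QKO (red), by genomic cluster, in naive cells (top) and EpiLCs (bottom), with black lines for cluster medians. Cluster 10 b is near 0 in naive LBRKO (median -0.05) and above 0 in EpiLC LBRKO (0.58), while its QKO values are below 0.

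The members of cluster 10 b were close to WT or above it in naive LBRKO, apart from Vmn2r87. Vmn2r85 had a density of 2.93, 3.16 and 2.64 in naive WT. The LBRKO libraries stood at 4.64, 3.09 and 4.47, the TKO libraries at 2.97, 2.26 and 2.79, and the QKO libraries at 2.18, 1.67 and 1.77. The LBRKO libraries overlapped with WT, and those of QKO lay below it. The LBRKO log2 change was 0.40 (SE 0.14, limma adjusted p = 0.015). This call rested on single libraries. It was 0.30 (adjusted p = 0.11) without naive LBRKO replicate 1, 0.34 (adjusted p = 0.081) without naive LBRKO replicate 3 and 0.33 (adjusted p = 0.077) without naive WT replicate 3. The other members of the cluster changed by -0.12 (Vmn2r84), 0.02 (Vmn2r86) and -0.30 (Vmn2r87) in LBRKO, none of them called. Vmn2r87 was called lower in 6 of 16 other settings, by edgeR among others (adjusted p = 0.020), and had -0.45 without naive LBRKO replicate 1 (limma adjusted p = 0.0068). In QKO all 4 members were called lower, by a median of -1.47, and against LBRKO directly all 4 were lower (-1.33). The 16 other protein-coding genes within 500 kb had a median of -0.41 in LBRKO, with 6 called lower and none higher, and of -1.55 in QKO, with all 16 called lower. Of all genes, 27.4% were called lower and 28.9% higher in LBRKO, and 42.1% lower in QKO. Against LBRKO, 31.5% of all genes were called lower in QKO.

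The difference between mutants was also tested directly in naive cells, on the relative scale alone. That scale removes differences in total signal between libraries. In the deposited spike-in scaled units, which keep them, the median member signal was 9.58 in LBRKO, 8.46 in TKO and 2.71 in QKO. The mutants were not tested against each other in those units. Against TKO, QKO was called lower at 106 members (median log2 difference -0.98), with 27.1% of all genes called lower. Against LBRKO, QKO was called lower at 55 members and higher at 4 (median -0.37), with 31.5% of all genes called lower, while edgeR on the recovered reads called 34 lower and 5 higher. The shares of all genes called higher, and called by edgeR, are not given here. TKO was called higher than LBRKO at 72 members and lower at 8 (median 0.60), with 15.8% of all genes called higher and 21.5% lower. Clusters split here. In 7 a QKO did not pass the test against LBRKO at any of 16 members (median -0.10), and TKO was above LBRKO at all 16 (1.03). Most of these members share much of their sequence, so they are not separate observations. For Vmn2r34 the QKO difference from LBRKO was -0.00 (SE 0.18, limma adjusted p = 0.99). On chromosome 6 QKO was below LBRKO at 9 of 9 members (-1.22), and in 5 a at 9 of 10 (-0.89). The chromosome 6 members are not separate observations either. Vmn2r20, Vmn2r21 and Vmn2r22 have 57.1%, 99.1% and 72.9% of their words elsewhere in the genome, and Vmn2r24 overlaps Vmn2r25. No difference between clusters was tested. Vmn2r26 differed by -1.52 (SE 0.13, adjusted p = 1.6e-14) between QKO and LBRKO.

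Part of these differences moved with whole chromosomes. All genes of chromosome 6 had a median log2 difference of -0.77 between QKO and LBRKO. With each chromosome's median set to 0, the chromosome 6 members were still below LBRKO in QKO at 8 of 9 (median -0.49), but TKO against LBRKO turned from -0.14 (3 of 9 lower) to 0.42 (6 of 9 higher). After the same centring QKO was below LBRKO at all 28 members of 17 a instead of 18, and at 4 of 16 members of 7 a. The share of all genes called after centring is not given here, so the centred counts cannot be set against it. Cluster 10 b kept its values (-1.32 for QKO against LBRKO, and -0.01 for LBRKO against WT). Whether chromosome number in these lines has a part in the differences was not tested.

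**Figure D5:**
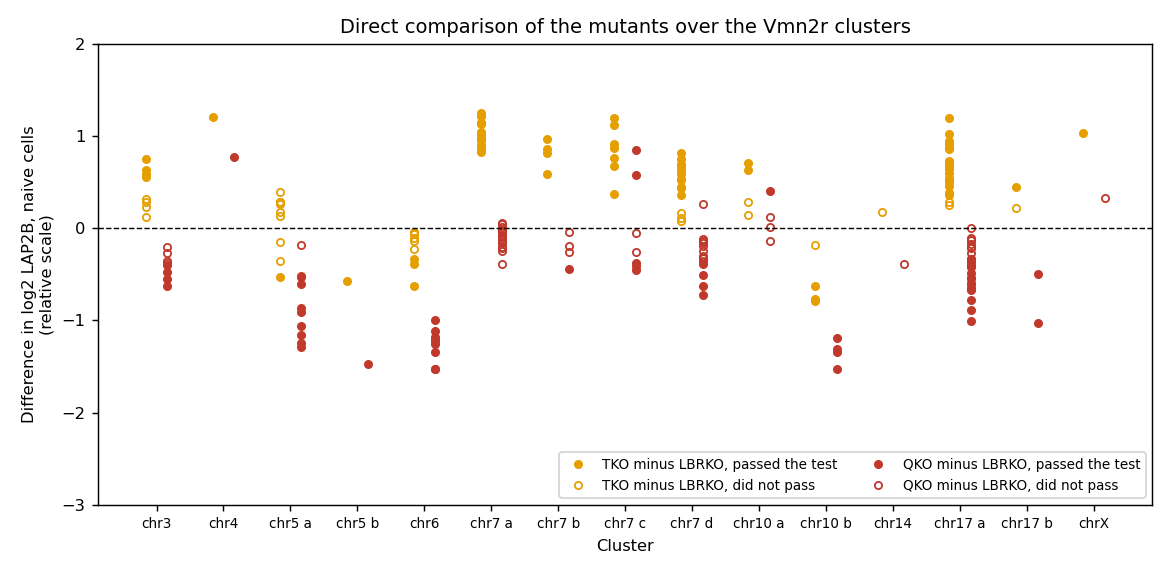
Log2 difference in relative LAP2B signal between mutants in naive cells for each tested Vmn2r gene, by genomic cluster, as TKO minus LBRKO (orange) and QKO minus LBRKO (red), with filled points for members that passed the test. In cluster 7 a all TKO differences are above 0 and no QKO difference passed, and on chromosome 6 and in 10 b all QKO differences passed and are below 0.

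In EpiLCs too the members' median LAP2B density was lower in the mutants than in WT. The study describes EpiLC signal of this protein outside lamina domains as well as within them, so the EpiLC values are LAP2B signal and no measure of lamina contact on their own. Against a median density of 1.18 ± 0.14 in WT, the LBRKO libraries stood at 0.712 ± 0.032, those of TKO at 0.766 ± 0.012 and those of QKO at 0.712 ± 0.021 (SD, n = 3 each). The members' median went from percentile 65.8 of all genes in WT to between 16.3 (LBRKO) and 18.3 (TKO). In the IGG background of EpiLC WT it lay at percentile 14.2. LBRKO was called lower at 79 of 111 members and higher at 3, with 10.0% of all genes called lower and 13.3% higher. TKO was called lower at 92 members and higher at none, with 9.92% of all genes called lower and 8.68% higher, and the first count was 51 without EpiLC WT replicate 1. QKO was called lower at 103 members, with 17.7% of all genes called lower. The median log2 changes were -0.68, -0.64 and -0.82, against medians of 0.01, 0.05 and 0.03 over all genes.

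Vmn2r104 in cluster 17 a fell the most in EpiLC LBRKO. The EpiLC WT libraries had a relative signal of 6.15, 4.55 and 3.61 at this gene, against 1.63, 1.60 and 1.20 for LBRKO, 1.65, 2.18 and 2.27 for TKO, and 1.45, 1.98 and 2.13 for QKO. All mutant libraries were below the WT range, and those of QKO overlapped with LBRKO and with TKO. The log2 changes were -1.60 (SE 0.19, limma adjusted p = 4.4e-09), -1.17 and -1.30. In the cluster on chromosome 6 LBRKO was called lower at 4 of 9 members (median -0.22), while TKO and QKO were lower at all 9 (-0.73 and -1.08). All genes of chromosome 6 had a median of 0.33 in this LBRKO contrast, and with each chromosome's median set to 0 LBRKO was called lower at 8 of 9 members (median -0.60). The share of all genes called after this centring is not given here. Vmn2r26 had 14.1, 12.6 and 12.0 in EpiLC WT and 12.3, 13.5 and 11.3 in LBRKO, which overlapped (log2 change -0.06, SE 0.13), against 7.13, 8.66 and 7.39 for TKO and 5.98, 5.96 and 6.10 for QKO.

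The 3 members higher in EpiLC LBRKO were Vmn2r84, Vmn2r85 and Vmn2r86 of cluster 10 b. For Vmn2r85 the relative signal, not divided by bins and so not comparable with its naive densities above, is given here. It was 5.37, 4.32 and 4.30 in EpiLC WT and 8.35, 7.22 and 7.44 with LBRKO. It was 4.00, 2.97 and 3.38 with TKO, and 3.07, 3.29 and 2.67 with QKO. All LBRKO libraries were above all WT libraries and all TKO and QKO libraries below them. For LBRKO and TKO the rule that named Vmn2r85 required this, so that separation adds no support. Its TKO log2 change was -0.43 (SE 0.14, limma adjusted p = 0.030). That call was lost without the filter on low values (limma adjusted p = 0.064). It was also lost with libraries divided by their mean (0.067) and after centring on chromosomes (0.065). The LBRKO log2 change was 0.71 (SE 0.14, limma adjusted p = 0.00013), and over the 16 other settings tried it stayed between 0.65 and 0.81 with an adjusted p of at most 0.0027. Vmn2r84 and Vmn2r86 rose by 0.59 and 0.58. The call of Vmn2r84 was lost in 2 of the 16 settings, without EpiLC WT replicate 3 (0.40, limma adjusted p = 0.13) and without the filter on low values (adjusted p = 0.059), and that of Vmn2r86 in the latter (adjusted p = 0.057). Vmn2r87, with 0.35, was not called (adjusted p = 0.052), but was in 5 of the settings. Of the 16 neighbouring protein-coding genes, 4 were called higher and none lower (median 0.36), beside 13.3% and 10.0% of all genes.

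Between the stages, tested on the relative scale alone, LAP2B at the members was lower in EpiLCs than in naive cells in WT. It was called lower at 69 members and higher at none (median log2 change -0.46), with 17.0% of all genes called lower. Scaling and single libraries moved this count. It was 27 (26 lower, 1 higher) with libraries divided by their mean, 33 without naive WT replicate 2, the library with the highest member median (1.93), and 40 without EpiLC WT replicate 3. Vmn2r85 fell the most, by 1.03 on the log2 scale (SE 0.14, limma adjusted p = 3.5e-07). The least of those called, Vmn2r53 (-0.31), was not called with libraries divided by their mean (-0.093), with the replicate block, with the compared groups alone, by DESeq2, or without any one of 4 of the 6 libraries. For LMNB1, 19 members were called lower and 1 higher in EpiLCs (median -0.29), with 7.13% of all genes called lower, although the members' percentile in density was no lower in EpiLCs (90.5) than in naive cells (88.6). The count was 6 with libraries divided by their mean and between 0 (without EpiLC replicate 1) and 59 (without naive replicate 2) when single libraries were left out. Vmn2r49 fell by 0.62, a call lost without the filter on low values (limma adjusted p = 0.090). Vmn2r63 rose by 0.46, a call lost without the filter (adjusted p = 0.15), with the replicate block (0.087) and after centring on chromosomes (0.39, adjusted p = 0.087). For IGG, 1 member was called lower, Vmn2r21 (-0.59, limma adjusted p = 0.046), with 0.391% of all genes called lower, while the members' median was -0.30 and 105 of the 111 were below 0. In spike-in scaled units the stages were not tested. There the median member signal of LAP2B in WT was 24.1 ± 6.9 in naive cells and 19.5 ± 4.9 in EpiLCs. That of LMNB1 was 22.4 ± 4.2 and 22.4 ± 2.1 (SD, n = 3 libraries each).

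The change in the mutants, again on the relative scale, also differed between the stages when that difference was tested itself. The LBRKO change was called higher in EpiLCs, meaning less negative or positive, at 74 members (median difference 0.70) and lower at none, with 19.8% of all genes called in either direction. For TKO it was called higher at 3 members (0.23), with 9.58% of all genes called, and for QKO at 102 members (1.03), with 45.8% of all genes called. With libraries divided by their mean, the TKO result turned (3 called lower, none higher, median -0.0079) and the LBRKO count was 45. The LBRKO count was 44 and the TKO count 1 without naive WT replicate 2, and the TKO count reached 7 without EpiLC WT replicate 1. Both ends of the QKO contrast moved, since the members' median density went from 1.66 in naive to 1.18 in EpiLC WT libraries and from 0.534 to 0.712 in those of QKO. The 7 co-receptors on chromosome 3 followed, with 6 called in LBRKO, none in TKO and 7 in QKO.

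The same contrasts were fitted on the deposited spike-in scale, which keeps differences in total signal between libraries. There the median of all genes was itself shifted in naive TKO and QKO, by -0.64 and -1.23 on the log2 scale, and the members' medians lay below these shifts. In spike-in scaled units the naive WT libraries had a median member signal of 24.1 ± 6.9, the LBRKO libraries of 9.58 ± 0.93, the TKO libraries of 8.46 ± 1.25 and the QKO libraries of 2.71 ± 0.018 (SD, n = 3 each). On this scale LBRKO was called lower at 101 members (median log2 change -1.24, all genes 0.22, 17.5% of them called lower), TKO at 109 (-1.49, 47.2%) and QKO at all 111 (-3.09, 65.1%). The order of LBRKO and TKO thus depended on the scale. In the medians, LBRKO was the lower on the relative scale and TKO on the spike-in scale. QKO lay further below LBRKO on the spike-in scale than on the relative scale. In EpiLCs LBRKO was called lower at 51 members and higher at 1 (median -0.64, 3.41% of all genes called lower), TKO at 89 (-0.91, 9.28%) and QKO at 111 (-1.69, 55.3%). The first count was 24 members called and the second 6 without EpiLC WT replicate 1.

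Genes that work with these receptors in the vomeronasal organ were counted in 4 lists. Over all genes tested, 33.3% were called higher and 42.1% lower in naive QKO, 28.9% and 27.4% in LBRKO, and 21.8% and 27.5% in TKO. Of 10 genes of vomeronasal signal transduction, 7 were called higher and 2 lower in naive QKO (median log2 change 1.10), 4 higher and 1 lower in LBRKO, and 6 higher and 2 lower in TKO. Trpc2, the cation channel of vomeronasal neurons, rose in QKO by 1.30 and Itpr3, an IP3 receptor, by 2.18, while Gnao1, the G protein subunit that type 2 receptors couple to, fell by 0.73 and Ano2, a calcium-gated chloride channel, by 1.49. Of 11 genes listed as partners of the receptors (H2-M proteins and B2m of the cell surface and Calr4, a calreticulin of the endoplasmic reticulum), 7 were called lower in QKO and none higher (median -1.08), 6 lower and 1 higher in LBRKO, and 5 lower in TKO. H2-M9, an MHC-like protein of the basal neurons, fell by 2.38 in QKO, and B2m, its light chain, gave -0.08 and was not called. Of 6 regulators of vomeronasal neurons, 3 were lower and 2 higher in QKO (median -0.39), with the same counts in LBRKO and TKO, among them Gli3 (-1.60) and Tfap2e (1.73), a factor of the basal neurons. All 7 formyl peptide receptors, some of which are vomeronasal receptors too, were lower in QKO (median -1.31), 6 in LBRKO and 2 in TKO. In EpiLC QKO the counts of lower and higher were 1 and 7 for signal transduction, 1 and 0 for the partners, 3 and 1 for regulators, and 3 and 0 for formyl peptide receptors, beside 17.7% and 18.3% of all genes.

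Other receptor families changed in the same direction as the members. Of all genes tested, 27.4% were called lower in naive LBRKO, 27.5% in TKO and 42.1% in QKO. Of 230 Vmn1r genes, 148 passed the filter on low mean signal over all LAP2B libraries, WT included, and were tested. Among these 148, 132 were lower in naive LBRKO (median -1.23), 98 in TKO (-0.73) and 145 in QKO (-1.62). Of 1148 olfactory receptor genes tested (1194 annotated), 935 were lower in LBRKO (-1.11), 787 in TKO (-0.80) and 1041 in QKO (-1.60). Of 77 Vmn2r pseudogenes tested (118 annotated), 66, 46 and 73 were lower (-1.20, -0.78 and -1.50). No difference between the families was tested. Protein-coding genes as a whole had medians of 0.30, 0.11 and 0.25. The 368 other protein-coding genes tested within 500 kb of a member had medians of -0.37, -0.00 and -0.47, with 194 lower and 128 higher in QKO, beside 42.1% and 33.3% of all genes. Around cluster 10 a, 31 of 44 such neighbours were higher in QKO (median 2.13), while its 4 members were all lower (-1.08). Vmn2r83 in that cluster had the smallest called fall of the members in QKO, by 0.60. The call was lost without naive WT replicate 2 (-0.33) and with libraries divided by their mean (-0.33, limma adjusted p = 0.069). Its relative signal was 4.78, 8.75 and 5.27 in naive WT and 3.88, 4.25 and 3.76 in QKO.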

How the data were processed

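By the study's methods, Bowtie2 2.3.5.1 placed the authors' read pairs on mm39, SAMtools 1.10 kept primary alignments of proper pairs, and duplicates were removed. No filter on mapping quality is stated. The deposited signal values of genes are spike-in scaled RPKM coverage summed over 1 kb bins and not divided by length. All values were whole multiples of one read within 0.05. Values were divided by the library's median gene, 0.1 was added and log2 taken. The lowest 10% of genes by mean were left out. limma 3.58.1 in R 4.3.3, with a trend and Benjamini-Hochberg adjustment, fitted the 24 LAP2B libraries together and LMNB1 and IGG each alone. edgeR 4.0.16 and DESeq2 1.42.0, run on the recovered reads, were alternatives, as were other pseudocounts, filters, scalings and left-out libraries. The limma fit was also run on simulated reads for naive QKO against WT, with the outcome not given here. Coordinates came from a later GENCODE release (GRCm39) than the authors' own. The members and lists were chosen with earlier results of these data known. Members named with values were taken from those with the largest and smallest called changes whose libraries do not overlap, the extremes of each cluster in LMNB1 density, Vmn2r34, and the extremes of shared sequence. Not all members that met this rule are shown, and where a lack of overlap was part of the choice it is no support for the change. The co-receptors, Vmn2r116 and the members not called were named in addition, after their values were seen. The 2 H3K9me3 samples, the transposable element tables and the other reference annotation were not used here.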

Additional observations from a re-analysis of the deposited data

Results flagged for a closer look

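One kind of result was singled out, a change in a mutant that differed between naive cells and EpiLCs by a test of the difference itself, on the relative scale. Among the 111 members tested this was so at 74 for LBRKO, at 3 for TKO and at 102 for QKO, each time with the higher value in EpiLCs (limma, adjusted over all genes). Over all genes 19.8%, 9.58% and 45.8% were called in either direction, so the TKO count is no larger a share than that of all genes. With libraries divided by their mean, 3 members were called for TKO as well, all with the lower value in EpiLCs.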

How the results depend on the processing

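Under another setting, 287 counts of called members stayed within 1.5 times the main count and in its direction, 40 moved further and 1 reversed. With libraries divided by their mean in place of their median, 27 members were called between the stages in WT LAP2B (26 lower, 1 higher), 45 for the stage difference of LBRKO, and 3 for that of TKO, all in the lower direction (median -0.0079). The same scaling gave 6 calls for LMNB1 between stages (4 lower, 2 higher) and 0 for IGG, and moved the members' naive TKO median from -0.87 to -0.54. edgeR called 39 members between naive QKO and LBRKO (34 lower, 5 higher). With only the groups compared in the fit, EpiLC TKO on the spike-in scale had 2 calls. For LMNB1, testing without the filter on low values gave 0 calls. For IGG, 3 members were called at a pseudocount of 0.5, 0 at 0.01, 0 without the filter, 9 among protein-coding genes alone, 0 after centring on chromosomes and 7 by DESeq2. The centring also turned Vmn2r129 in naive QKO to -0.35, and leaving out single libraries gave -0.21 (naive QKO replicate 2) to 0.26 (naive QKO replicate 3), with -0.065 without naive WT replicate 2. The cause of these shifts was not tested.

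Leaving out one library at a time gave 51 to 96 calls for EpiLC TKO, 33 to 78 for the WT stage contrast of LAP2B, 44 to 84, 1 to 7 and 92 to 106 for the stage differences of LBRKO, TKO and QKO, 24 to 58 and 6 to 108 for EpiLC LBRKO and TKO on the spike-in scale, 0 to 59 for LMNB1 and 0 to 3 for IGG. On the spike-in scale the lower counts came without EpiLC WT replicate 1 (24 and 6), EpiLC LBRKO replicate 1 (29) or 2 (30), and EpiLC TKO replicate 3 (15) or 2 (28), and 34 for TKO without EpiLC WT replicate 3. The naive contrasts with WT on the relative scale had 98 to 110 calls.

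Same-numbered replicates did not deviate together. Of 84 pairs of LAP2B libraries 3 had a correlation over 0.1 (range -0.115 to 0.177), and for LMNB1 and IGG none did. A replicate block gave 107, 103 and 109 calls for naive LBRKO, TKO and QKO, 82, 93 and 103 in EpiLCs, 68 for the WT stage contrast of LAP2B and 8 for that of LMNB1. Reads shared between copies limit single members.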
